A study of Mus musculus with 32 samples.

Results

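The platelet-derived growth factor (PDGF) genes of the mouse were followed through the conversion of embryonic stem (ES) cells toward primitive endoderm (PrE), the layer of the blastocyst that later lines the yolk sac. The set holds the 2 receptors, *Pdgfra* and *Pdgfrb*, and the 4 ligands, *Pdgfa*, *Pdgfb*, *Pdgfc* and *Pdgfd*. These 6 genes were taken by symbol from 54233 rows, and all 6 were among the 15227 genes that passed the filter on low counts and were tested. Bulk RNA-seq was made at 0, 2, 4, 8, 16, 24, 48 and 96 h, with 4 replicates per time point and 32 libraries in all. Every library came from KH2 mouse ES cells (C57BL/6) with the transgene TRE:GATA6-DSREd2, a single copy of a TET-responsive element that drives GATA6 and the red reporter in the presence of doxycycline (Dox). The 0 h cells had no Dox and grew in 2i medium, which holds LIF, the MEK inhibitor PD0325901 and a GSK3 inhibitor. All later cells were in serum medium with LIF, with Dox at 1 µg/mL up to 12 h and without it from then on. Dox, serum and the loss of both inhibitors therefore cannot be told apart in any comparison with 0 h. The cells are 1 line, the labels name no sort, and they do not say that replicates were separate cultures, so the p-values measure the spread between these libraries.

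PDGF ligands are secreted as dimers and act through a pair of receptor tyrosine kinases at the cell surface. PDGF-A and PDGF-C signal mainly through the alpha receptor, PDGF-B binds both receptors, and PDGF-D acts mainly through the beta receptor. PDGF-A and PDGF-B are cleaved inside the cell by furin-like convertases, whereas PDGF-C and PDGF-D leave the cell as latent forms that need a protease outside it. In the blastocyst PDGFRA is a surface marker of PrE, and PDGF-A is made by the neighbouring epiblast. The beta receptor is best known in pericytes and smooth muscle. The comparisons ask when each receptor and ligand changed its transcript level after GATA6 was switched on.

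*Pdgfra* and *Pdgfd* are the members that passed the test upward at 48 h, and the 250 bases before their annotated starts are shown because GATA6 binds DNA at GATA letters. The windows are on the plus strand of GRCm38.p6, from RefSeq, at chr5:75152001-75152250 for *Pdgfra* and chr9:6168236-6168485 for *Pdgfd*, and capitals mark matches to AGATAA or TGATAA on either strand (TTATCT and TTATCA on the other), which share the letters GATAA.
Pdgfra: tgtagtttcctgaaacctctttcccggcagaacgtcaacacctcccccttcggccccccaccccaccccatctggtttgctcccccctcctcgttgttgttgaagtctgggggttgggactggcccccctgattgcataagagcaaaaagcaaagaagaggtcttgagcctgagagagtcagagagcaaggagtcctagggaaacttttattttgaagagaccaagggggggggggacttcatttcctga
Pdgfd: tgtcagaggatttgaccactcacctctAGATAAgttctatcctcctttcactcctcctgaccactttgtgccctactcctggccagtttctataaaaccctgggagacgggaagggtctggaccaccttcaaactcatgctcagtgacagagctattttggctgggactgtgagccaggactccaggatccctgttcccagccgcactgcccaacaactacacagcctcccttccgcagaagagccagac
The *Pdgfd* window held 1 match, an AGATAA that began 223 bases before the start. The *Pdgfra* window held 0, and so did the *Pdgfc* window and both windows of *Pdgfa*. No window of *Pdgfb* or *Pdgfrb* was counted. Among all 32851 windows of the same length, 5452 held a match (16.6%). These matches describe the letters of the windows and are not evidence of binding or of its absence. The study mapped GATA6 itself and shows it at putative regulatory elements of *Pdgfra*. The positions of those elements were not compared with this window.

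Reads on genes ranged from 3190108 to 12301732 per library, and 1 read was worth 0.626 to 2.42 normalized counts, the unit used below (reads divided by the authors' size factor). A level of 3 reads, taken as the limit of what could be measured, was 1.88 to 7.27 normalized counts depending on the library. The transgene row was at 0 in all 4 uninduced libraries and had medians of 611 at 2 h and 70.6 at 16 h. The row of endogenous *Gata6* had a median of 0.34 at 0 h and 2082 at 96 h. The 9 PrE markers listed for the check of cell identity were all called higher from 8 h on, and the summed level of 7 ES cell markers went from 35911 to 42559 at 0 h to 3616 to 4355 at 96 h, still with every one of the 7 at a mean of at least 10. Of the trophoblast markers 4 of 5 were tested, with 1 called higher and 0 lower at 48 h, and of the mesoderm markers 2 of 4, with 0 higher and 1 lower (8.48% and 7.09% of all genes). At other time points 1 trophoblast marker was lower at 8, 16 and 24 h, and 1 was higher at 96 h. Of the mesoderm markers 1 was lower at 4, 8, 24 and 96 h and 2 at 16 h, and 1 was higher at 96 h. The shares of all genes called at each time point are given below. Replicates 1 and 2 stood apart from replicates 3 and 4. Deviations from the time point means correlated at 0.196 within these pairs of replicates. The value between the pairs, -0.196, mirrors this because deviations from a mean cancel out, and it is not a separate observation. The labels give no reason for the split, so values are also given for each pair of replicates where the split touched a result. In bulk RNA a lower level in each cell cannot be told apart from fewer cells that express the gene.

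Genes were compared with limma, and a gene was called when its Benjamini-Hochberg adjusted p was below 0.1 and its change at least 4-fold, the thresholds of the study. "Rose" and "fell" are used only for such calls. Against 0 h, 0 members were called at 2 h, where 2.00% of all tested genes were called higher and 0.348% lower. At an unadjusted p below 0.05 there were 4 at 2 h, *Pdgfra*, *Pdgfrb*, *Pdgfa* and *Pdgfd*, where 45.8% of all genes had such a p, and limma-voom on whole reads also called 0 members. At 4 h *Pdgfra* was called higher (2.69% of all genes) and 0 members lower (0.709%). At 8 h *Pdgfra* was higher (3.40%) and *Pdgfb* lower (1.31%). At 16 and 24 h *Pdgfra* was higher (4.03% and 4.85%), and *Pdgfb* and *Pdgfc* were lower (2.40% and 4.34%). At 48 h *Pdgfra* and *Pdgfd* were higher (8.48%), and *Pdgfa* and *Pdgfc* were lower (7.09%). At 96 h *Pdgfra* and *Pdgfd* were higher (9.28%), and *Pdgfc* was the member called lower (10.3%). At an adjusted p below 0.1 alone the members numbered 4, 4, 5, 4, 5, 4 and 4 in time order, beside 44.8%, 48.5%, 49.1%, 53.3%, 61.8%, 73.4% and 76.4% of all genes.

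Between neighbouring time points from 2 h on, all in serum medium and with Dox withdrawn between 8 h and 16 h, the calls fell into 3 of the 6 steps. *Pdgfra* was called at 4 h against 2 h (0.788% of genes called in either direction), and *Pdgfra* and *Pdgfrb* at 8 h against 4 h (0.814%). No member was called at 16 h against 8 h (1.04%) or at 24 h against 16 h (1.25%), and 3 members in each of these steps had an adjusted p below 0.1, as did 20% and 28.2% of all genes. At that threshold alone 3 members passed at 4 h against 2 h and 4 at 8 h against 4 h (24.4% and 17.1% of all genes). *Pdgfb* was called at 48 h against 24 h (3.91%), where 4 members and 57.6% of all genes passed the adjusted p alone, and 0 members at 96 h against 48 h (3.70%), where 2 members and 54.5% of all genes had an adjusted p below 0.1. From 2 h to 48 h, both in serum, *Pdgfra* and *Pdgfd* rose and *Pdgfc* fell (16.1% of genes called in either direction).

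**Figure D1:**
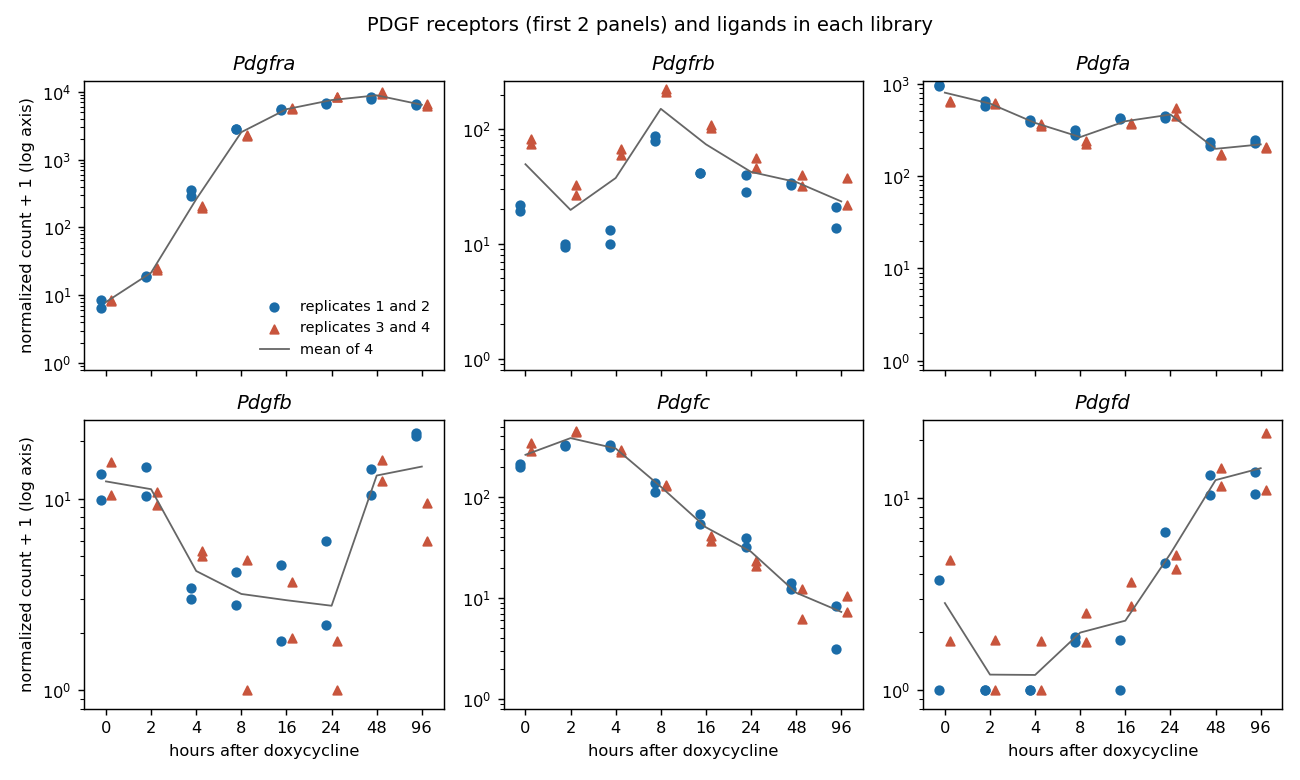
Normalized count + 1 (log axis) of each PDGF gene in each of the 32 libraries against hours after Dox (time points equally spaced, not to scale). Circles are replicates 1 and 2, triangles replicates 3 and 4, and the line joins the means of 4. *Pdgfra* climbs from at most 7.55 at 0 h to at least 7865 at 48 h, *Pdgfc* declines from 4 h on, and the 2 symbols stand apart for *Pdgfrb* at all time points but 48 h.

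*Pdgfra* (ENSMUSG00000029231, chr5:75152292-75198215, plus strand), which encodes the receptor for PDGF-A and PDGF-C, was close to silent in uninduced cells and became one of the most changed genes of the series. In replicates 1 to 4 its normalized counts were 5.52, 7.47, 7.25 and 7.55 at 0 h, from 4 to 11 reads. At 2 h they were 17.7, 18.1, 22.3 and 23.8, and the groups did not overlap. The rise then steepened, with 353, 288, 189 and 205 at 4 h and 2777, 2819, 2234 and 2281 at 8 h. The counts were higher still after Dox was withdrawn. The 16 h libraries held 5294, 5502, 5558 and 5677, those of 24 h 6495, 6904, 8334 and 8314, and those of 48 h 7865, 8202, 9319 and 9934. Only at 96 h were they lower, at 6502, 6404, 6487 and 6196, below every library of 48 h.

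The log2 fold change of *Pdgfra* against 0 h was 1.43 ± 0.14 (SE) at 2 h (limma adjusted p = 1.2e-09), under the 4-fold limit. It reached 4.99 ± 0.14 at 4 h, 8.31 ± 0.14 at 8 h and 10.12 ± 0.14 at 48 h (limma adjusted p = 7.5e-31), with all 4 libraries higher each time. The 0 h mean was 6.95 ± 0.962 (SD, n = 4) and the 48 h mean 8830 ± 963, a ratio of 1270. By size of the rise *Pdgfra* was number 541 of the 15227 genes tested at 2 h, number 5 at 8 h, number 2 at both 16 and 24 h, number 11 at 48 h and number 16 at 96 h. The steepest steps came between 2 h and 8 h, with a rise of 3.56 ± 0.14 from 2 h to 4 h (limma adjusted p = 1.1e-17) and 3.32 ± 0.14 from 4 h to 8 h (limma adjusted p = 8e-17). Later steps were 1.13 from 8 h to 16 h, 0.44 from 16 h to 24 h and 0.24 from 24 h to 48 h, each ± 0.14, and the last of these had a limma adjusted p of 0.16. The difference of -0.46 ± 0.14 from 48 h to 96 h had a limma adjusted p of 0.0068 and was under the 4-fold limit. Averaging each pair of replicates first gave that difference a limma adjusted p of 0.12. The 2 pairs of replicates gave 10.08 and 10.16 for 48 h against 0 h. They differed most at 4 h, with 5.43 in replicates 1 and 2 and 4.56 in replicates 3 and 4.

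*Pdgfrb* (ENSMUSG00000024620, chr18:61045150-61085061, plus strand), the receptor of PDGF-B and PDGF-D, stayed low and had its highest values at 8 h. Its normalized counts in replicates 1 to 4 were 20.7, 18.3, 74.2 and 81.2 at 0 h, then 8.31, 9.06, 25.8 and 32 after 2 h and 8.9, 12.1, 58.5 and 66.7 after 4 h. At 8 h they stood at 85.6, 77.7, 212 and 224, so that every library exceeded every one of 4 h. Lower values followed, 40.9, 40.7, 108 and 102 after 16 h and 27.6, 38.8, 54.8 and 44.8 after 24 h. The last values were 33, 32, 38.7 and 31 at 48 h and 12.7, 20, 36.4 and 20.8 at 96 h. Replicates 3 and 4 were both above replicates 1 and 2 at every time point except 48 h. Their mean was 3.98 times higher at 0 h, 5.96 times at 4 h, 2.67 times at 8 h and 1.07 times at 48 h.

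The change from 4 h to 8 h, 2.32 ± 0.56 (SE) on the log2 scale, was the single call of *Pdgfrb* (limma adjusted p = 0.0049). It was 2.86 within replicates 1 and 2 and 1.78 within replicates 3 and 4, the latter under the 4-fold limit. Averaging each pair of replicates first ended the call (limma adjusted p = 0.26), and so did leaving out 4 h replicate 1 (log2 fold change 1.84) or 4 h replicate 2 (1.98). Neither the main fit nor the averaged one removed the offset between the pairs, so it counted as spread in both. A limma fit that took the replicates as blocks gave this step an adjusted p of 3.3e-06. Against 0 h the 8 h level was higher by 1.74 ± 0.56, not called. The limma adjusted p was 0.013, with each pair of replicates averaged first 0.17, and with the replicate block 3.6e-05. This difference was 2.01 within replicates 1 and 2, past the limit, and 1.48 within replicates 3 and 4. Without 0 h replicate 3, 0 h replicate 4 or 8 h replicate 2 it came to 2.05, 2.09 and 2.00 and was called. Within each pair of replicates both 8 h libraries were above both 0 h libraries, and both 2 h libraries were below them. The log2 fold change at 2 h was -1.24 ± 0.56 (limma adjusted p = 0.082, and 0.0019 with the replicate block). At 48 h against 0 h the sign depended on the pair, with 0.71 in replicates 1 and 2 and -1.14 in replicates 3 and 4. The 12 listed markers of fibroblasts and mural cells, in which *Pdgfrb* is known, were low. Their summed level ran from 90.4 to 95.8 at 8 h and from 51 to 104 at 0 h, 3 of the 12 passed the filter on low counts (*Thy1*, *Tagln* and *Des*), and *Dcn*, *Lum*, *Col3a1* and *Rgs5* had at most 2 reads in any library. *Acta2*, *Col1a1* and *Postn* had at most 29, 21 and 18. Most of the sum was *Des*, with a mean of 69.8 ± 6.14 (SD, n = 4) at 8 h and 182 ± 25 at 48 h, and *Tagln* was called higher at 96 h (log2 fold change 2.64 ± 0.47). At 8 h the sum was 90.4 to 92.9 in replicates 1 and 2 and 94.1 to 95.8 in replicates 3 and 4, and the part of such cells in the values of *Pdgfrb* was not tested.

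*Pdgfa* (ENSMUSG00000025856, chr5:138976014-138997370, minus strand), the ligand of PDGFRA made by epiblast cells, was the most abundant ligand before induction. Its mean was lower at all 7 later time points, at 2 h mainly through replicates 1 and 2. At 0 h its normalized counts were 977, 933, 632 and 650 in replicates 1 to 4. The 2 h libraries held 570, 643, 616 and 603, those of 4 h 399, 385, 349 and 367, and those of 8 h 313, 280, 222 and 239. From 4 h on no library reached the lowest one of 0 h. Higher values followed, 413, 420, 361 and 370 at 16 h and 443, 421, 538 and 447 at 24 h, every library of 16 h above all of 8 h. The counts were 211, 234, 167 and 173 at 48 h and 227, 246, 203 and 199 at 96 h.

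For *Pdgfa* the log2 fold change against 0 h was -0.36 ± 0.13 (SE) at 2 h, -1.58 ± 0.13 at 8 h (limma adjusted p = 1.7e-11) and -0.76 ± 0.13 at 24 h. It was -2.003 ± 0.13 at 48 h (limma adjusted p = 1.3e-14), the time point at which it was called, and -1.84 ± 0.13 at 96 h (limma adjusted p = 6.3e-14). The call at 48 h lies on the limit, a log2 value of -2. It ended without 0 h replicate 1 or 2 (-1.90 and -1.92) and without 48 h replicate 3 or 4 (-1.93 and -1.95), while the adjusted p stayed far below 0.1. The steps were -0.70 from 2 h to 4 h and -0.52 from 4 h to 8 h, 0.58 from 8 h to 16 h (limma adjusted p = 0.0017) and -1.24 from 24 h to 48 h (limma adjusted p = 2.9e-09), each ± 0.13 and under the 4-fold limit. With each pair of replicates averaged first, the limma adjusted p of these steps were 0.084, 0.26, 0.17 and 0.00075, in the same order. At 0 h replicates 1 and 2 averaged 955 and replicates 3 and 4 averaged 641, and the 48 h value was -2.10 and -1.91 in the 2 pairs. The 2 h value was -0.66 and -0.07, and the 24 h value -1.14 and -0.39. With each pair averaged first the 2 h difference had a limma adjusted p of 0.23.

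*Pdgfc* (ENSMUSG00000028019, chr3:81036416-81214040, plus strand), whose product is secreted in a latent form and also acts through PDGFRA, was lost almost completely. Its normalized counts in replicates 1 to 4 were 213, 200, 288 and 346 at 0 h and 317, 331, 451 and 438 at 2 h, with overlap between the groups. At 4 h they were 314, 327, 277 and 294. Lower counts came after that, with 111, 136, 131 and 128 at 8 h and 53.1, 67.6, 35.9 and 40.6 at 16 h. The 24 h libraries had 31.2, 38.2, 22.3 and 19.6, those of 48 h 11.3, 13.2, 11.4 and 5.16, and those of 96 h 2.12, 7.36, 6.28 and 9.45, the last from 2 to 10 reads. From 8 h on no library overlapped those of 0 h.

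The early difference, 0.57 ± 0.28 (SE) on the log2 scale at 2 h, had a limma adjusted p of 0.11, and limma-voom on the whole reads gave 0.60 with an adjusted p of 0.00094. The 8 h value of *Pdgfc* was -1.01 ± 0.28 (limma adjusted p = 0.0045). It then fell, with log2 fold changes at 16, 24, 48 and 96 h of -2.39, -3.20, -4.57 and -5.26, each ± 0.28 (limma adjusted p = 1.5e-16 at 96 h), and all 4 libraries were lower each time. The mean at 48 h was 3.93% of that at 0 h, and the mean at 96 h 2.41%. Among the 15227 genes it was number 123 from the largest fall at 48 h. From 2 h to 48 h, within serum medium, the log2 fold change was -5.15 ± 0.28 (limma adjusted p = 4.4e-16). At 16 h the pairs of replicates gave -1.77 and -3.01, the first short of 4-fold.

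*Pdgfb* (ENSMUSG00000000489, chr15:79995874-80014977, minus strand), the ligand of both receptors that is best known from endothelium and platelets, was scarce throughout and went down and came back. Replicates 1 to 4 held 9, 13, 18 and 5 of its reads at 0 h and 9, 18, 7 and 12 at 2 h. Between 4 h and 24 h it was near the limit of detection, with 2, 1, 5 and 5 reads in the 4 h libraries, 4, 2, 0 and 5 in those of 8 h, 4, 1, 4 and 1 in those of 16 h, and 1, 8, 0 and 1 in those of 24 h. The reads returned to 10, 7, 17 and 11 at 48 h and 19, 20, 4 and 9 at 96 h. In normalized counts the 4 groups from 4 h to 24 h lay between 0 and 5.01, below every library of 0, 2 and 48 h.

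*Pdgfb* fell by 2.15 at 8 h, 2.15 at 16 h and 2.45 at 24 h on the log2 scale, each ± 0.48 (SE), with limma adjusted p of 0.00056, 0.00048 and 7.6e-05. From 24 h to 48 h it rose by 2.56 ± 0.48 (limma adjusted p = 5.4e-05), and the 48 h level differed from 0 h by 0.11 ± 0.48 (limma adjusted p = 0.85). At these counts the size of a log2 fold change depends on the added count, and with 5 added in place of 1 the values at 8, 16 and 24 h were -1.20, -1.23 and -1.31 and that from 24 h to 48 h was 1.39, all short of 4-fold. Within replicates 1 and 2 the 8 h, 24 h and 48 h against 24 h values were -1.76, -1.66 and 1.74, also short of it, and within replicates 3 and 4 they were -2.54, -3.24 and 3.38. The deposited values gave 1.70 from 24 h to 48 h. Summed over libraries there were 45 reads at 0 h and 10 at 24 h, a ratio of 0.212 after scaling (exact 95% interval 0.0955 to 0.428, counting error only). Leaving out 8 h replicate 3 brought the 8 h value to -1.67, and leaving out 16 h replicate 2 or 4 brought the 16 h value to -1.95 or -1.96. The 96 h level was 20.6 in replicates 1 and 2 and 6.77 in replicates 3 and 4.

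*Pdgfd* (ENSMUSG00000032006, chr9:6168584-6378850, plus strand), the second latent ligand, which acts mainly through the beta receptor, appeared late. There were 2, 0, 1 and 2 of its reads at 0 h in replicates 1 to 4 and a single read in all at 2 h and at 4 h. At 8 h there were 1, 1, 1 and 2 reads and at 16 h 0, 1, 4 and 2. There were 3, 9, 2 and 4 reads at 24 h, then 13, 5, 12 and 13 at 48 h and 12, 9, 8 and 22 at 96 h. The normalized counts at 48 h, 12.2, 9.42, 10.6 and 13.4, were above every library up to 24 h.

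Summed reads of *Pdgfd* were 5 at 0 h, 43 at 48 h and 51 at 96 h, ratios of 9.22 (exact 95% interval 3.66 to 29.8) and 10.8 (4.34 to 34.7) after scaling, which cover counting error only. Against 2 h, with 1 read, the ratio at 48 h was 50.7 (8.62 to 2048). The fitted log2 fold change against 0 h was 2.37 ± 0.42 (SE) at 48 h (limma adjusted p = 1.1e-05) and 2.51 ± 0.42 at 96 h (limma adjusted p = 3.6e-06), and it depends on the added count. With 5 added these values were 1.29 and 1.41. Without 0 h replicate 2, the library with 0 reads, the 48 h value was 1.95 and was not called.

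**Figure D2:**
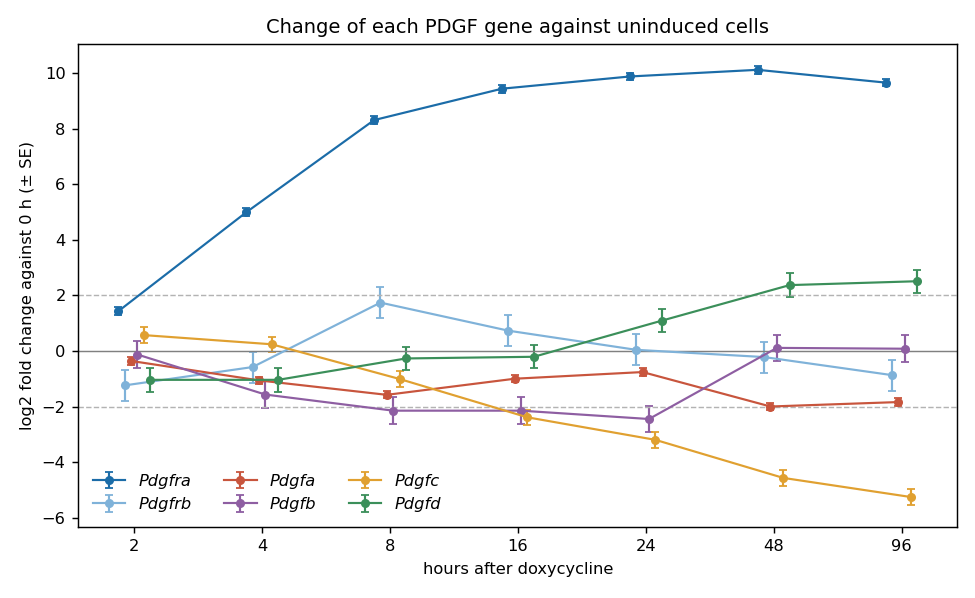
Log2 fold change of the normalized count + 1 against 0 h, with its standard error, for the 6 PDGF genes at the 7 time points after Dox (equally spaced, not to scale). Dashed lines mark a 4-fold change. *Pdgfra* lies between 8.31 and 10.12 from 8 h on, *Pdgfc* goes down to -5.26 at 96 h, and *Pdgfb* is below -2 from 8 h to 24 h and near 0 at 48 h.

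Levels of different genes were compared per kb of merged exons. At 0 h the order was *Pdgfa* with 256 ± 58.5 (SD, n = 4) normalized counts per kb, *Pdgfc* with 51.4 ± 13.4, *Pdgfrb* with 8.87 ± 6.15, *Pdgfb* with 2.72 ± 0.637, *Pdgfra* with 0.693 ± 0.0959 and *Pdgfd* with 0.582 ± 0.551. The libraries of *Pdgfrb* and *Pdgfb* overlapped in this order, and those of *Pdgfra* and *Pdgfd* did. At 48 h *Pdgfra* led with 881 ± 96.1, ahead of *Pdgfa* with 62.9 ± 10.1, *Pdgfrb* with 6.15 ± 0.631, *Pdgfd* with 3.62 ± 0.562, *Pdgfb* with 2.94 ± 0.572 and *Pdgfc* with 2.02 ± 0.691. The libraries of *Pdgfd* and *Pdgfb*, and those of *Pdgfb* and *Pdgfc*, overlapped there. Of the 2 receptors per kb, *Pdgfra* made up 10.2% ± 6.47 at 0 h, 41.7% ± 13.1 by 2 h, 78.7% ± 17.9 by 4 h and 99.3% ± 0.0903 by 48 h. The libraries ran from 4.84% to 18.2% at 0 h, 28.9% to 53.7% at 2 h and 62.6% to 95.6% at 4 h. At each of these time points replicates 1 and 2, with less *Pdgfrb*, were both above replicates 3 and 4. The 4 ligands summed to 311 ± 46.4 normalized counts per kb at 0 h, and at 8, 24 and 48 h to 110 ± 12.1, 155 ± 15.3 and 71.5 ± 10.1.

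Within the ligands, *Pdgfa* held the largest share at every time point, and *Pdgfc* held the second largest up to 24 h and the smallest from 48 h on. The share of *Pdgfa* at 0 h was 81.7% ± 6.88 (SD, n = 4), and at 4, 24 and 48 h it was 66.6% ± 0.725, 95.3% ± 1.86 and 87.8% ± 1.87. It was lower than at 0 h by 15.1 percentage points at 4 h (0.0286 in a two-sided exact permutation test, the smallest p that 4 against 4 allows, and 0.04 after adjustment over 14 such tests). It was higher by 10.6 points at 16 h and by 13.6 at 24 h, with the same p. At 2, 8, 48 and 96 h the exact p was 0.0571, 0.2, 0.2 and 0.114. Without division by length the 48 h and 96 h differences of 6.17 and 7.31 points became 11.4 and 13.2, each with an exact p of 0.0286. The sign of each difference was the same in both pairs of replicates, but the size was not, with 6.32 points in replicates 1 and 2 and 20.9 in replicates 3 and 4 at 24 h. *Pdgfc* held 17.2% ± 6.62 at 0 h, 32.9% ± 0.792 at 4 h and 2.8% ± 0.849 at 48 h. *Pdgfb* and *Pdgfd* held 0.898% and 0.192% at 0 h, and 4.2% ± 1.15 and 5.17% ± 1.28 at 48 h.

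The ratio of *Pdgfra* to *Pdgfa*, the receptor and its most abundant ligand, was higher at each of the 7 later time points than at 0 h. Its log2 value at 0 h was -6.63 ± 0.47 (SD, n = 4), and the values at 2, 4, 8 and 48 h were -4.84 ± 0.21, -0.58 ± 0.34, 3.26 ± 0.09 and 5.49 ± 0.37. Each of the 7 time points differed from 0 h with no overlap between libraries (two-sided exact permutation p = 0.0286, adjusted p = 0.04). At 4 h the difference from 0 h was 6.71 in replicates 1 and 2 and 5.4 in replicates 3 and 4. These ratios were not divided by length, so their level between genes is not interpreted here, only their change.

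**Figure D3:**
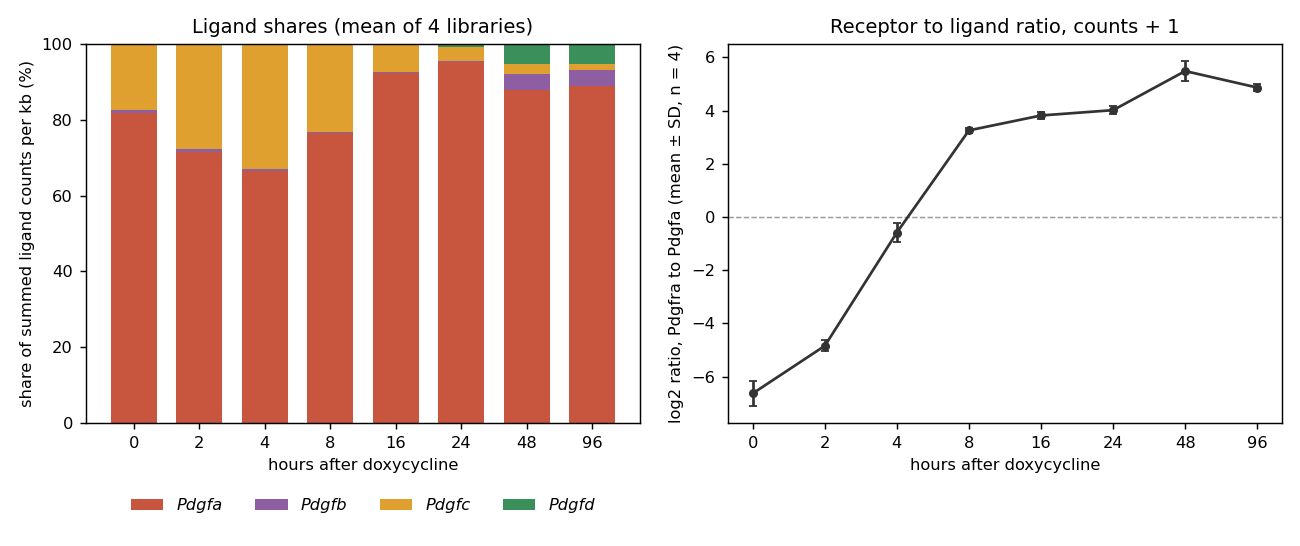
Left, mean share (%) of each ligand in the summed ligand counts per kb of merged exons at each time point (4 libraries), where *Pdgfa* is at 66.6% at 4 h and reaches 95.3% at 24 h. Right, log2 ratio of *Pdgfra* to *Pdgfa* (counts + 1, mean ± SD, n = 4), which goes from -6.63 at 0 h to 5.49 at 48 h. Hours are equally spaced, not to scale.

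Genes that process the ligands or help their receptors were measured alongside, from a list of 12, all tested. At 48 h against 0 h 3 were called higher and 0 lower (8.48% and 7.09% of all genes), with a median log2 fold change of 0.29 beside -0.02 over all genes. The 3 were *Plat*, *Sparc* and *Nrp1*. *Plat*, the tissue plasminogen activator that releases active PDGF-C, rose by 5.88 ± 0.26 (SE, limma adjusted p = 2.9e-18), from 7.1 ± 4.42 to 460 ± 201 normalized counts, while *Pdgfc* itself fell. *Sparc*, a matrix protein that binds PDGF-B and is abundant in parietal endoderm, rose by 3.96 ± 0.22 from 4252 ± 949 to 66186 ± 15547. *Nrp1*, a co-receptor, rose by 3.73 ± 0.53 from 2.47 ± 2.02 to 41.3 ± 20.4. At 96 h *Plat*, *Sparc* and *Nrp1* were again called higher (9.28% of all genes), with log2 fold changes of 8.46, 4.76 and 4.87. *Pcsk6*, a convertase, and *Lrp1*, an endocytic co-receptor of PDGFRB, were called lower there (10.3%), with log2 fold changes of -2.48 ± 0.26 and -2.31 ± 0.22. At 4, 8, 16 and 24 h the list had 1, 2, 4 and 3 calls higher (2.69%, 3.40%, 4.03% and 4.85%). It had 1 lower at 24 h (4.34%). *Plat* was among those higher at 8, 16 and 24 h, and *Sparc* at 24 h. *Plau*, the urokinase that can activate PDGF-D, had its calls at 4, 8 and 16 h (log2 fold change 2.34, 2.98 and 2.46, each ± 0.40), when *Pdgfd* had at most 4 reads in a library. *Furin* was called at 16 and 24 h, with 2.13 and 2.37 ± 0.29, and *Pcsk5*, another convertase, at 16 h with 2.38 ± 0.39. *St14*, a membrane protease, was called lower at 24 h, with -2.09 ± 0.28. *Pdgfrl*, a receptor-like gene without a kinase, was at -0.63 ± 0.35 at 48 h (limma adjusted p = 0.11).

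Of 34 adaptors and effectors of PDGF receptors, 2 were called higher and 1 lower at 48 h, 4-fold calls that 8.48% and 7.09% of all genes also met, and 13 had an adjusted p below 0.1 in each direction, where that threshold alone took 36.1% of all genes higher and 37.3% lower. Their median log2 fold change was 0.05. *Pik3r1*, a regulatory subunit of PI3 kinase, rose by 2.20 ± 0.15 (SE, limma adjusted p = 4.6e-14) from 203 ± 43.8 to 932 ± 172. *Mapk3*, which encodes ERK1, rose by 2.24 ± 0.08 (limma adjusted p = 1.9e-20) from 344 ± 47.4 to 1616 ± 77.9. *Plcg2*, a phospholipase, fell by 2.55 ± 0.28 on the log2 scale (limma adjusted p = 3.3e-09) from 485 ± 214 to 80.4 ± 31.9.

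Related receptors and ligands of the same families showed how far the pattern of *Pdgfra* was shared. Of 15 listed genes 13 were tested, and *Flt3* and *Pgf*, with at most 9 and 12 reads in any library, were not. At 48 h 2 of the 13 were called higher and 2 lower (8.48% and 7.09% of all genes), and at 96 h 4 higher and 2 lower (9.28% and 10.3%). *Kit*, the receptor for stem cell factor, moved against *Pdgfra* up to 16 h. Its log2 fold change was -3.64 ± 0.32 (SE) at 8 h (limma adjusted p = 1.4e-10) and -4.29 at 16 h. The mean of *Kit* then went from 80.4 at 16 h to 415 at 48 h. From 48 h to 96 h it rose by 2.66 ± 0.32 (limma adjusted p = 7.7e-08), to 0.75 ± 0.32 against 0 h. *Flt1*, a VEGF receptor, was called higher at 2, 4 and 8 h (4.02, 4.03 and 2.64, each ± 0.46), not at 16 or 24 h, and again at 48 h (4.12) and 96 h (8.59), when its mean was 1061 ± 253. *Kdr*, another VEGF receptor, was at -2.99 ± 0.38 at 16 h and 3.07 ± 0.38 at 96 h. *Csf1r* and its ligand *Csf1* were called at 96 h, with 5.30 ± 0.37 and 4.55 ± 0.45. *Il34*, the other CSF1R ligand, had a log2 fold change of -6.61 ± 0.34 at 48 h and *Vegfc* one of -5.14 ± 0.41, beside the -4.57 of *Pdgfc*. *Vegfa* rose by 2.13 ± 0.32 at 48 h. *Flt4*, *Kitl*, *Flt3l*, *Vegfb* and *Vegfd* were not called at any time point against 0 h. Their log2 fold changes at 48 h were 1.14, 1.45, -0.37, -0.24 and -1.44.

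**Figure D4:**
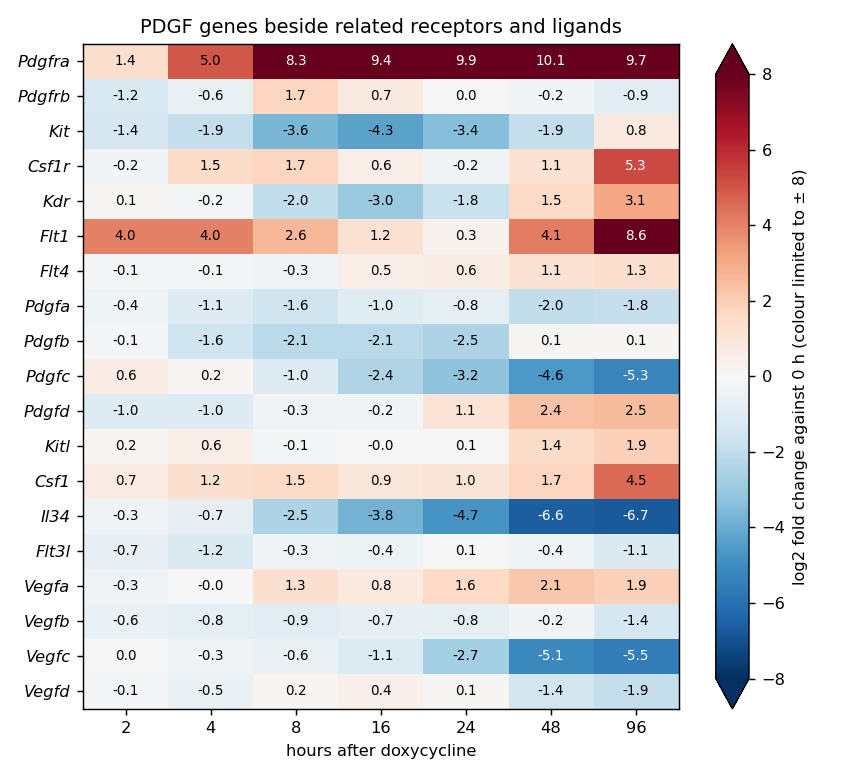
Log2 fold change against 0 h (numbers and colour, colour limited to ± 8) of the PDGF genes and 13 related receptors and ligands at 7 time points after Dox. *Pdgfra* is above 8 from 8 h on, *Kit* is lowest at 16 h (-4.29), and *Csf1r* and *Flt1* reach 5.30 and 8.59 at 96 h.

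*Pdgfra* lies in a cluster of receptor genes, and none of the tested neighbours in the list reached its fold change. Along the chromosome the tested ones were *Fip1l1*, *Lnx1*, *Chic2*, *Kit*, *Kdr*, *Srd5a3*, *Tmem165* and *Clock*, between 108 and 1012 kb away. At 48 h 0 of these 8 were called by limma, where 8.48% of all genes were called higher and 7.09% lower. At an adjusted p below 0.1 alone 4 were higher and 3 lower, beside 36.1% and 37.3% of all genes. Earlier, 1 of the 8 was called lower at 8 h (1.31% of all genes), 2 at 16 h (2.40%) and 1 at 24 h (4.34%). At 96 h *Kdr* was called higher (9.28%) and *Lnx1* lower (10.3%), with log2 fold changes of 3.07 ± 0.38 and -3.01 ± 0.41. *Chic2*, 108 kb upstream, was higher by 0.98 ± 0.08 (SE) at 2 h (limma adjusted p = 1.3e-10), 1.39 at 8 h and 0.65 at 48 h. *Fip1l1* was at 0.05 ± 0.07 at 48 h, *Lnx1* at -1.85 ± 0.41, *Srd5a3* at 0.39 ± 0.17, *Tmem165* at 1.18 ± 0.06 and *Clock* at -0.49 ± 0.12. *Gsx2*, 74.4 kb upstream, was not tested, with at most 7 reads in a library. It had a mean of 4.99 ± 0.5 at 8 h and of 0.17 ± 0.34 at 0 h. *Gm19583*, a noncoding gene that ends 5.18 kb before *Pdgfra* and was picked after its values were seen, had 0 reads at 0 h. Its means at 8, 24, 48 and 96 h were 6.49 ± 3.71, 12.8 ± 5.73, 4.24 ± 0.715 and 2.4 ± 1.56, with at most 21 reads in a library. *Gm19583* is not among the 8 listed neighbours, but it was tested and called higher at 8 h and 48 h. Its log2 fold changes there were 2.77 and 2.38 (limma adjusted p = 1.5e-06 and 5.4e-06).

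**Figure D5:**
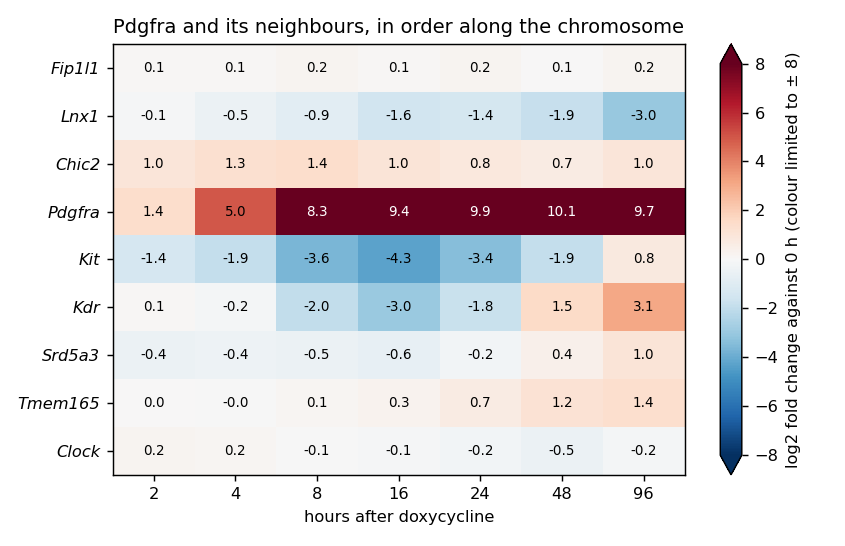
Log2 fold change against 0 h (numbers and colour, colour limited to ± 8) of *Pdgfra* and its 8 tested neighbours, in order along the chromosome. The row of *Pdgfra* reaches 10.12 at 48 h, the rows of *Fip1l1* and *Clock* stay between -0.49 and 0.21, and *Kit* is lowest at 16 h (-4.29).

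Some members overlap genes on the other strand. The libraries were made with a kit that keeps the strand, but the strand setting of the counting is not given in the sources used here, so reads from such pairs could have been lost or shared. Rows inside *Pdgfra* on the other strand, *Gm42802* and *Gm42803*, had at most 0 and 2 reads. *Gm16000* inside *Pdgfc* and *Gm41361* over the start of *Pdgfb* had at most 2 and 1. At *Pdgfa* the antisense gene *6330403L08Rik* had a 0 h mean of 37.1 ± 7.09 (SD, n = 4) and a 48 h mean of 7.6 ± 4.06, and its log2 fold change of -2.27 stands beside the -2.003 of *Pdgfa*. These genes were picked after their values were seen.

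The genes with the most similar course over the 32 libraries differed between members. Pearson correlations on log2 counts are given as a description, since all points share the time course. For *Pdgfra* they were *Podxl* (0.981), *Npl* (0.980), *Snx2*, *Amot* and *1010001N08Rik* (0.976 each). *Pdgfc* was closest to *Map1a* (0.979), *Ddc* (0.978), *Kdm1a*, *Cd80* (0.975 each) and *Fzd5* (0.974). *Pdgfd* followed *Casp6* (0.946), *Micu2* (0.943), *Arfgap3* (0.939), *Tcn2* and *C2cd2* (0.935 each). For *Pdgfa* the highest were *Ndufaf5* (0.912), *Chchd3* (0.905), *Pole2* (0.897), *Wtap* (0.895) and *Gm4737* (0.891). *Pdgfrb* was nearest to *Btrc* (0.897), *Nynrin* (0.865), *Gtf2ird1* (0.840), *Nudt12* (0.827) and *Mgat5* (0.826), with replicates 3 and 4 above 1 and 2 in its own values. For *Pdgfb* they were, in order, *Irf2bp2*, *Cdo1*, *Lamp2*, *COX1* and *Nkain4*, from 0.882 to 0.804. Among the members, *Pdgfra* correlated at -0.77 with *Pdgfa*, -0.81 with *Pdgfc* and 0.25 with *Pdgfrb*, and *Pdgfc* at -0.87 with *Pdgfd*.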

How the data were processed

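RNA was measured by TruSeq stranded mRNA sequencing (single reads) in 32 libraries of 1 mouse ES cell line, 4 at each of 8 time points grouped by the sample titles. The authors checked reads with FastQC 0.11.8, trimmed them with cutadapt 2.7, mapped them with HISAT2 2.1.0 to GRCm38.p6, counted them per gene with featureCounts (Subread 1.6.4) on GENCODE annotation, and deposited DESeq2 variance-stabilized log2 values. Undoing the transformation gave whole reads for 100% of the values (largest distance from a whole number 3.9e-09, tolerance 1e-06). Reads on genes were 3190108 to 12301732 per library, and intervals cover counting error only.

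The filter kept genes whose normalized count reached 10 or more in 4 libraries. Their log2(normalized count + 1) was fitted by limma 3.58.1 under R 4.3.3 (lmFit, contrasts and eBayes with a trend, all libraries, Benjamini-Hochberg adjustment per comparison), tested on simulated data. Fold changes on this scale understate those of low genes. Exact permutation tests, shares, correlations and counts used Python 3.11.15, numpy 2.4.6, pandas 2.3.3 and scipy 1.17.1. Exon lengths and positions came from GENCODE on GRCm38, a later release than the authors used.

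The members, gene lists, comparisons and tests were chosen with earlier results of these data known. Genes named beside the members follow a rule: every measured gene of the related families and of the neighbours, the genes called at 48 h in the signalling and processing lists (3 highest and 3 lowest), and the 5 most similar courses per member. *Plau*, *Furin*, *Pcsk5*, *Pcsk6*, *St14*, *Lrp1* and *Pdgfrl* were named outside it, after their values were seen. Alternatives covered the added count, the filter, TMM factors, the replicate block, the pairs of replicates, the libraries in the fit, limma-voom, the deposited values as they are, the thresholds, exon lengths and each library left out.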

Additional observations from a re-analysis of the deposited data

Results flagged for a closer look

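In 64 groups of 4 libraries (each member, the *Pdgfra* to *Pdgfa* ratio and the *Pdgfa* share at each time point), 4 groups held a library farther from the rest than Dixon's 95% limit, where chance alone flags about 1 in 20 groups. *Pdgfra* at 0 h was 5.52 normalized counts in replicate 1, from 4 reads, and 7.25 to 7.55 in the others. The other 3 were *Pdgfd* at 1 or 2 reads. It was at 0.821 in replicate 4 at 2 h and at 0.802 in replicate 3 at 4 h, with 0 in the other libraries, and at 1.52 in replicate 4 at 8 h, with 0.778 to 0.893 in the others. All 4 groups were at or near the limit of detection.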

How the results depend on the processing

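The rise of *Pdgfra* from 4 h on and the fall of *Pdgfc* at 24, 48 and 96 h were called under every alternative run. With no fold change required, the members called against 0 h numbered 4, 4, 5 and 5 at 2, 4, 8 and 24 h in place of 0, 1, 2 and 3, beside 44.8%, 48.5%, 49.1% and 61.8% of all genes. Between neighbouring time points they were then 3, 4, 3, 3, 4 and 2 in time order, in place of 1, 2, 0, 0, 1 and 0, beside 24.4%, 17.1%, 20%, 28.2%, 57.6% and 54.5% of all genes. With 5 added to the counts, and with the deposited values as they are, 1 member was called at 8 h in place of 2, 2 at 48 h in place of 4, and 0 at 48 h against 24 h in place of 1. Of all 15227 genes 427 and 483 were then called at 8 h in place of 717, and 1671 and 1818 at 48 h in place of 2370. At 48 h against 24 h they were 306 and 335 in place of 596. *Pdgfb* was also short of 4-fold at 16 h (-1.23 and -1.39) and 24 h (-1.31 and -1.62), and *Pdgfd* at 96 h (1.41 and 1.70). With a mean of at least 50 required, which left out *Pdgfb* and *Pdgfd* among others, the members called were 1 at 8 h and 0 at 48 h against 24 h. Beside them 337 and 265 of 10488 genes were called. With *Pdgfb* and *Pdgfd* left out, their other calls were absent too. These were *Pdgfb* at 16 and 24 h, and *Pdgfd* at 48 h, at 96 h and at 48 h against 2 h. Averaging the pairs of replicates, or replicates 3 and 4 only, left 1 of 2 at 8 h against 4 h, where 105 and 143 of all genes were called in place of 124. Replicates 1 and 2 only gave 1 at 24 h against 16 h in place of 0, and 0 at 48 h against 24 h in place of 1. Over all genes they gave 200 in place of 191, and 646 in place of 596. Leaving out 1 library gave 1 to 3 members at 8 h (1 without 8 h replicate 3), 2 to 3 at 16 h, 2 to 4 at 48 h against 0 h (2 without 0 h replicate 2, which ended the calls of *Pdgfa* and *Pdgfd*) and 1 to 2 at 8 h against 4 h (1 without 4 h replicate 1 or 2). Over all genes leaving out 1 library gave 0.887 to 1.33 times the number called. *Pdgfrb* changed sign at 24 h in replicates 3 and 4 only (-0.64) and at 48 h in replicates 1 and 2 only (0.71). The cause of these changes was not tested.

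The difference in the *Pdgfra* to *Pdgfa* ratio at 4 h was 6.71 in replicates 1 and 2 and 5.4 in replicates 3 and 4. That of the *Pdgfa* share at 24 h was 6.32 and 20.9 points. Without division by length the share differed by 11.4 points at 48 h and 13.2 at 96 h, and with the longest transcript by 8.53 at 96 h, each then with an exact p of 0.0286. Leaving out 1 library gave -12.5 to -8.09 points at 2 h, -17.5 to -13 at 4 h, 8.24 to 12.7 at 16 h and 11.2 to 15.7 at 24 h, with exact p on either side of 0.05.

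Same-numbered libraries deviated together with a mean correlation of 0.196 and a lowest of -0.0428, no more than the other number of the same pair (0.196). The number itself thus added nothing to the split between the pairs of replicates. With the replicate block the 8 h against 4 h value of *Pdgfrb* had an adjusted p of 3.3e-06, 4 members were called at 48 h against 0 h as without it, and the exact sign-flip p of the ratio and the share was 0.125, the smallest 4 pairs allow. Over all genes the number called at 48 h against 0 h was 2370, and 1159 with a mean of at least 50 required. At 2 h it was 358, and 213 with 5 added, 226 with the deposited values and 165 with that mean. Over the 14 comparisons these 3 settings gave 0.371 to 0.816 times the number, 0.5 added gave 1.06 to 1.52 times, and each pair of replicates alone 1.01 to 1.83 times. Calls of *Pdgfb* and *Pdgfd* are limited by their few reads.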
